A study of Mus musculus with 12 samples.

Results

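Mature miRNA values of Dicer-deficient mouse embryonic fibroblasts (MEF) were compared with those of Drosha-deficient fibroblasts. The comparison took 2 of the 12 libraries of the series, chosen by their sample titles, and every miRNA ID of their lists entered: 340 IDs were in at least 1 list, 242 were in both, and 221 of those passed a minimum summed value of 50 and were compared. The fibroblasts came from embryos of stage E14.5 on a backcrossed C57BL/6 background. The Drosha-deficient and Dicer-deficient cells carried the Rosa26-CreER transgene, which expresses a hormone-inducible Cre recombinase from a broadly active locus, and a Drosha or a Dicer allele that the labels do not describe further. The control library, shown beside them, also came from Rosa26-CreER embryos. Each genotype had 1 library. The labels also list an age of 6 to 7 weeks for these samples, which does not match an embryonic source and was not used, and they give neither the inducer treatment nor the time after deletion. How much Drosha or Dicer protein was left is not recorded in the sources used here.

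Drosha, with its partner Dgcr8, cuts the hairpin precursor out of the primary miRNA transcript in the nucleus, and Dicer then cuts the loop off the exported hairpin to leave a duplex, from which 1 strand (the guide) is usually kept in an Argonaute protein and the other (the passenger, or star) is mostly lost. Most miRNAs need both enzymes. Known exceptions to the Drosha step are mirtrons, whose hairpins are excised by splicing (miR-877 is one), and hairpins transcribed directly at precursor size with a capped end, such as miR-320 and miR-484. Small fragments of tRNAs and other structured RNAs can also be entered under miRNA names. Both enzymes leave a 5′ phosphate and a 3′ hydroxyl, and only RNA of 19 to 30 nt with these ends was cloned here.

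The mature sequences below, from RefSeq on GRCm38.p6, belong to miRNAs at the ends of the comparison and to relatives that share a hairpin or a seed with them. Capitals mark the seed, bases 2 to 8 from the 5′ end, which pairs with target RNAs. Those with higher values in the Drosha-deficient library were miR-484 (chr16:14159630-14159651, plus strand), miR-877* (a strand of a mirtron, chr17:35960731-35960752, minus strand), miR-702 (chr5:136991520-136991541, plus strand), miR-1839-5p (chr7:81529919-81529940, plus strand), miR-1983 (chr13:21896930-21896950, minus strand) and miR-146a with its seed relative miR-146b.
miR-484: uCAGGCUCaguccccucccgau
miR-877*: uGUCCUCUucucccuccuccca
miR-702: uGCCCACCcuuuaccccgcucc
miR-1839-5p: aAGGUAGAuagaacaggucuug
miR-1983: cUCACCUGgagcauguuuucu
miR-146a: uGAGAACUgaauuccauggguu
miR-146b: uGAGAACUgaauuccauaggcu

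The next group had higher values in the Dicer-deficient library. It holds miR-7a, which 2 loci encode, miR-149, miR-92a, the miR-27a and miR-21 hairpins with both arms, 3 miRNAs of the miR-15/16 seed, and the miR-125 pair, which shares a seed and includes the second most abundant miRNA of the Dicer-deficient library.
miR-7a: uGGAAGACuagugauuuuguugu
miR-149: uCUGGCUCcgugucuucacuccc
miR-92a: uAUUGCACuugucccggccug
miR-27a: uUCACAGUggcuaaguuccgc
miR-27a*: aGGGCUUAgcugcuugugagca
miR-21: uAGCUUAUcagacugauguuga
miR-21*: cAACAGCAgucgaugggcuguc
miR-15a: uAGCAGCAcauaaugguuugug
miR-16: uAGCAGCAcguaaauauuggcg
miR-322: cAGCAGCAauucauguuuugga
miR-125a-5p: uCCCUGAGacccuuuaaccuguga
miR-125b-5p: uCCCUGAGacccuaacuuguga

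The deposited values are whole numbers scaled to a fixed library total, with sums of 1000833 for control, 994854 for Drosha-deficient and 999895 for Dicer-deficient cells. Their low values fell on steps worth 1 read, which put the depth near 275000, 77400 and 270100 reads, so 1 read counted for 3.64, 12.9 and 3.70. A Drosha-deficient value under 129 therefore stands for fewer than 10 reads. The lists held 314, 279 and 303 miRNAs. In all 3 libraries miR-22, an abundant miRNA of fibroblasts, took more than all other miRNAs together, at 55.8, 55.5 and 58.7%. The preset fibroblast and mesenchymal miRNAs took 59.8, 58.0 and 62.8%, most of it miR-22. In the CD4 T cell libraries of the series miR-22 was at 152800 (control), 62368 (Drosha-deficient) and 127581 (Dicer-deficient), so it does not set fibroblasts apart. Of the defining markers of other cell types, miR-150, miR-144 and miR-451 (blood) and miR-200a, miR-200b, miR-200c, miR-205, miR-203 and miR-429 (epithelium) were in none of the 3 lists, and miR-126-3p (endothelium) was at 15 in control and 19 in Dicer-deficient cells and not listed in Drosha-deficient cells. The preset epithelial marker miR-141 was listed in Dicer-deficient but not in Drosha-deficient cells. The whole preset epithelial list, which also holds miR-183, miR-182 and miR-96, summed to 680, 142 and 540. The preset muscle or neural list summed to 240, 169 and 293. Some blood-cell miRNA was present: miR-142-3p was at 153, 65 and 52. The whole preset blood list, most of it miR-181a, which is not restricted to blood, took 1.19, 1.12 and 0.937%.

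Below, values of a miRNA are deposited values in the order control, Drosha-deficient, Dicer-deficient. Ratios are log2 of the Dicer-deficient over the Drosha-deficient value, after a pseudocount of 0.5, minus the median over the 221 compared miRNAs, so 0 is the median miRNA and negative ratios mean a relatively higher Drosha-deficient value. Each library is scaled to its own total, so a loss shared by all miRNAs cannot be seen in it. Brackets hold 95% exact counting intervals from the implied reads. They cover counting error only, and reads amplified by PCR are not independent molecules. With 1 library a side no difference has a replicate check, and none was tested.

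The spread between the 2 deletion libraries was wide. Ratios ran from -7.18 to 5.08, with quartiles at -0.74 and 0.79 and an SD over miRNAs of 1.60. A distance of 1 log2 unit from the median miRNA was used as a rule of size. By it 43 miRNAs (19.5%) were higher and 43 (19.5%) lower in Dicer-deficient cells, while 135 lay between. The interval also left out the median miRNA for 33 (14.9%) on each side. The median miRNA itself was 0.65 log2 units, or 1.57-fold, higher in the Dicer-deficient library, and against the library totals the split was 89 higher and 26 lower. Any ratio less than 0.65 below 0 therefore has the opposite sign against the library totals.

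Low Drosha-deficient counts were spread unequally over the ends. Fewer than 10 Drosha-deficient reads stood behind 29 of the 43 higher miRNAs and 11 of the 43 lower ones. Among the 125 miRNAs with 10 or more such reads, 14 were higher and 32 lower. A low Drosha-deficient value itself raises the ratio, so these splits are partly set by the cut. With a cut on the mean of both libraries (at least 130), which leaves 145 miRNAs, 28 were higher and 25 lower. The rule cuts through a continuum: miR-130a at -1.0 was just inside it and miR-181c at -0.98 just outside, and on the other side miR-378 at 1.05 was inside and miR-154 at 0.99 outside.

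**Figure D1:**
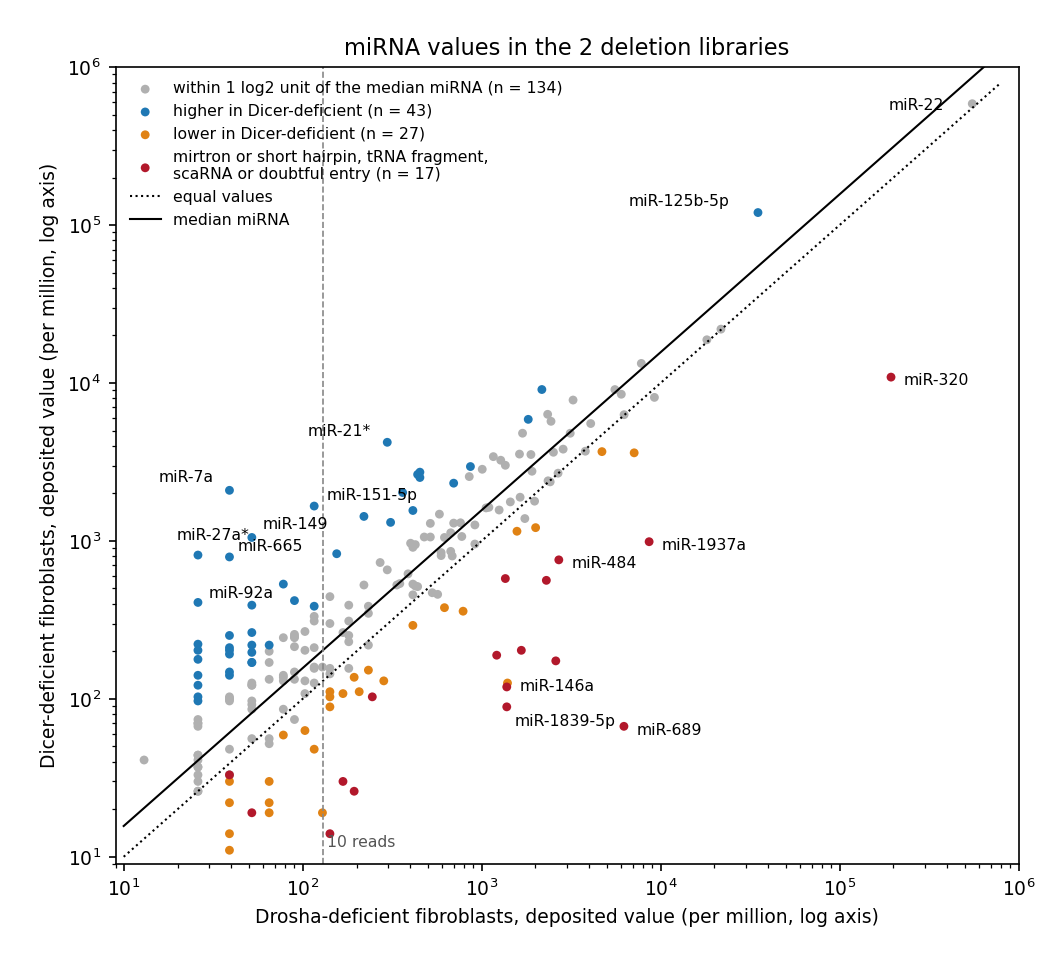
Deposited value of each of the 221 compared miRNAs in Drosha-deficient (x axis) and Dicer-deficient fibroblasts (y axis), on log axes, 1 library each; the solid line is the median miRNA, the dotted line equal values and the dashed line 10 Drosha-deficient reads. The red points, 17 entries of the lists of mirtrons or short hairpins, tRNA fragments, a scaRNA and doubtful entries, lie below the solid line, and most blue points (higher in Dicer-deficient cells) lie left of the dashed line.

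Entries of 4 preset lists held 9 of the 10 lowest ratios. Of the 17 compared members of these lists (mirtrons or short hairpins, tRNA fragments, a scaRNA-overlapping entry, and other withdrawn or doubtful entries), 16 were lower in Dicer-deficient cells and none was higher. That share compares with 19.5% over all compared miRNAs. Their median ratio was -3.52, against 0.10 over the other 204. Together they took 22.5% of the Drosha-deficient library, 1.49% of the Dicer-deficient library and 1.61% of control. These lists were drawn up with earlier results of these data known, so their counts are a description.

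Most of that share was miR-320, at 11782, 193941 and 10900. It took 1.18, 19.5 and 1.09% of the libraries. The Drosha-deficient value was 17.8-fold above the Dicer-deficient one, the ratio was -4.80 [-4.86 to -4.74], and the Dicer-deficient value lay close to control. Its hairpin (GRCm38, chr14:70443510-70443591, plus strand) overlaps no other gene in GENCODE M21. miR-484, the other direct-transcript hairpin, was at 1105, 2700 and 759. Its ratio of -2.48 [-2.76 to -2.19] was smaller than that of miR-320, and their intervals do not overlap. The miR-484 hairpin (chr16:14159626-14159692) lies on the plus strand, opposite exon sequence of Marf1 that includes an untranslated region.

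The mirtron strand miR-877* was at 33, 142 and 14, a ratio of -3.94 [-6.02 to -2.15] from 11 and 4 reads. Its hairpin (chr17:35960730-35960814, minus strand) lies in an Abcf1 intron on the same strand. The other strand, miR-877, was listed in control at 11 and in Drosha-deficient cells at 26 and was not listed in Dicer-deficient cells. Next came miR-702, at 22, 168 and 30 with a ratio of -3.11 [-4.63 to -1.77]. The miR-702 hairpin (chr5:136991433-136991541, plus strand) overlaps coding exon sequence of Plod3. Of the remaining listed members, miR-1981 (26 in Drosha-deficient cells only) and miR-1982* (26 and 19, not listed in control) rest on 2 Drosha-deficient reads each and were not compared.

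All 6 tRNA-fragment entries were lower in Dicer-deficient cells, with a median ratio of -3.73 and 10 or more Drosha-deficient reads each. Together they took 1.59% of the Drosha-deficient and 0.209% of the Dicer-deficient library. The list took 0.234% of control, where 7 of its IDs were listed. The largest was miR-1937a at 865, 8630 and 989, a ratio of -3.77 [-3.98 to -3.57]. miR-1937b was at 215, 2597 and 174 (-4.54), and the names of these 2 entries differ only by a letter, so reads may have been split between them. Of the others, miR-1274a was at 160, 1382 and 119 (-4.18), miR-1983 at 284, 1667 and 203 (-3.68) and miR-720 at 22, 194 and 26 (-3.52). The smallest distance was that of miR-805, at 782, 1357 and 578 with a ratio of -1.88 [-2.25 to -1.51]. No sequence was matched for several of these entries, and whether their reads came from tRNA genes was not tested.

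miR-1839-5p, whose hairpin (chr7:81529916-81529988, plus strand) coincides with a scaRNA entry and an exon of the noncoding RNA 2900076A07Rik, was at 138, 1382 and 89. Its ratio was -4.60 [-5.31 to -3.96]. The lowest ratio of all belonged to miR-689, an entry on the doubtful list. It was at 84, 6240 and 67, a 93.1-fold difference between the deletion libraries from 483 and 18 reads, with a ratio of -7.18 [-7.96 to -6.52]. Other doubtful entries were nearer the median: miR-1944 was at -3.33, miR-1959 at -2.68, miR-1195 at -2.08 (4 reads), miR-709 at -1.89 and miR-690 at -0.88 (3 reads). Listed in the Drosha-deficient library alone were 4 members of that list, miR-677 at 52 and miR-715, miR-712 and miR-1186 at 26 each.

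Outside the 4 lists, 27 of 204 compared miRNAs were lower and 43 higher in Dicer-deficient cells. miR-146a, a brake on NF-kB signalling that targets Irak1 and Traf6, had the lowest ratio of these. It was at 175, 1395 and 126, and 108 against 34 reads gave a ratio of -4.11 [-4.72 to -3.55]. In control and Dicer-deficient cells the values were alike, and the Drosha-deficient value was 11.1-fold above the latter. Its seed relative miR-146b, from another chromosome, was at 91, 116 and 48, a ratio of -1.91 [-3.26 to -0.51] from 9 Drosha-deficient reads. The next lowest outside the lists was miR-712*, at 15, 129 and 19 (-3.38 [-5.35 to -1.77], 10 Drosha-deficient reads), whose partner strand miR-712 is on the doubtful list; it was named after its values were seen. The Mir146 hairpin (chr11:43374397-43374461, minus strand) overlaps no other annotated gene.

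miR-146a is also expressed in blood cells, and 4 of the 11 compared members of the blood list were lower in Dicer-deficient cells, none higher, beside 19.5% each way over all compared miRNAs, with a median ratio of -0.97. The others were miR-342-3p at 545, 788 and 359 (-1.78), miR-155 at 33, 78 and 59 (-1.05, 6 reads) and miR-146b. Of more restricted blood markers, miR-142-3p was highest in control, with a ratio of -0.97 from 5 Drosha-deficient reads, miR-223 was at 47 in control and 14 in Dicer-deficient cells and was not listed in Drosha-deficient cells, and miR-486 was at 80, 26 and 67 (0.70, 2 reads). The part of blood cells in the value of miR-146a was not tested. In bulk cultures a larger share of expressing cells and more RNA per cell cannot be told apart.

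Deeper members of the lower side included miR-210, the classic hypoxia-induced miRNA, at 4051, 7119 and 3614. Its ratio was -1.63. It lost the call against the library total, where its Drosha-deficient value was still the highest of the 3. miR-10a, encoded in a Hox cluster, was at 1313, 2003 and 1214 (-1.37), and miR-130a was at 4309, 4703 and 3678 (-1.0). These too lose the call against the library totals. All 3 differed less between the libraries than miR-320 or miR-146a.

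At the other end stood miRNAs that were nearly lost from the Drosha-deficient list while the Dicer-deficient value stayed near control. miR-7a, which acts on growth factor signalling, was at 2793, 39 and 2092. The ratio of 5.08 [3.55 to 7.39] came from 3 against 565 reads. One of its hairpins lies in an intron of Hnrnpk and the other in no annotated gene. miR-27a* was at 1051, 26 and 814, a ratio of 4.29 [2.46 to 7.39] from 2 against 220 reads. Then followed miR-665 at 1109, 39 and 792 and miR-149, from an intron of Gpc1, at 1225, 52 and 1052. Both had a ratio of 3.68, with 3 and 4 Drosha-deficient reads.

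miR-92a was at 400, 26 and 408 (3.30 [1.44 to 6.39], 2 reads). It is encoded in the growth-promoting miR-17~92 cluster and at another locus on the X chromosome, and its value pools both. miR-151-5p, from an intron of Ptk2, was at 1727, 116 and 1663 (3.19 [2.25 to 4.33], 9 reads). The best covered of these was miR-21*, at 4171, 297 and 4214, where 23 against 1138 reads gave a ratio of 3.18 [2.59 to 3.84]. miR-16, miR-183 and miR-145* completed the 10 highest at 2.42, 2.29 and 2.26, with 2, 2 and 4 Drosha-deficient reads. For all 10 the Drosha-deficient value was the lowest of the 3 libraries, and for all 10 at the lower end it was the highest. Both ends were picked by a ratio that holds the Drosha-deficient value, so this pattern is partly set by the choice.

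**Figure D2:**
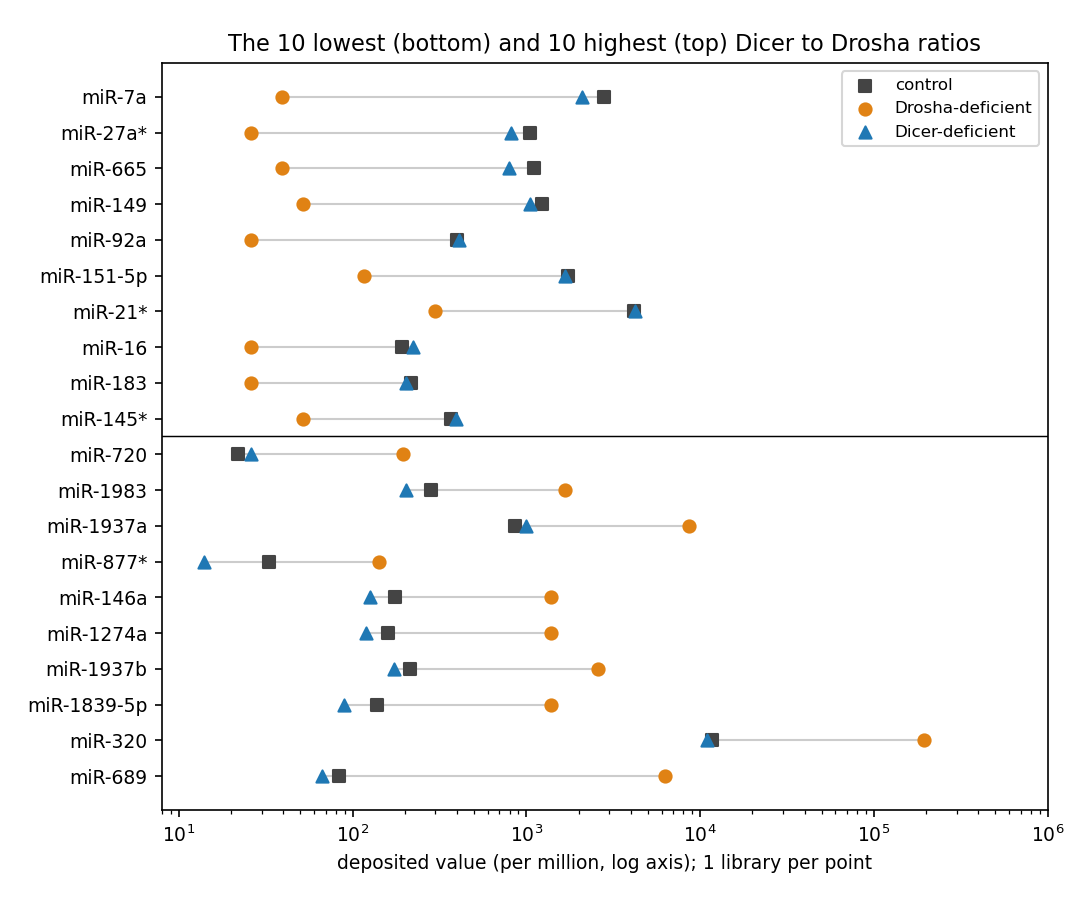
Deposited values, on a log axis, of the 10 miRNAs with the highest (top) and the 10 with the lowest (bottom) Dicer to Drosha ratios, in the control (squares), Drosha-deficient (circles) and Dicer-deficient (triangles) libraries; each point is 1 library. Circles stand apart from the paired squares and triangles in every row, down to 26 for miR-27a*, miR-92a, miR-16 and miR-183 and up to 193941 for miR-320. The rows were picked by a ratio that holds the circle values.

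Among the 10 most abundant miRNAs of either library, some differed widely and others little. miR-320, miR-1937a and miR-210, described above, were lower in Dicer-deficient cells, and both miR-125 guides were higher. miR-125b-5p, the vertebrate counterpart of worm lin-4, was at 114676, 35013 and 120097. By implied reads it took 3.50% [3.37 to 3.63] of the Drosha-deficient and 12.01% [11.9 to 12.1] of the Dicer-deficient library, a 3.43-fold difference in deposited value with a ratio of 1.13 [1.07 to 1.19]. miR-125a-5p, with the same seed, was at 9669, 2171 and 9097 (1.42 [1.19 to 1.65]). The third miRNA of that seed, miR-351, was at 1862, 698 and 1297 (0.25).

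In contrast, miR-22 was at 558538, 551680 and 587189, miR-127 at 24331, 21744 and 21937, let-7i at 21276, 18140 and 18789 and miR-31 at 9084, 9238 and 8111. Their deposited values were within a small margin of each other. Because the median miRNA was higher in Dicer-deficient cells, their ratios were below 0, at -0.56, -0.63, -0.60 and -0.83, and those of miR-22, miR-127 and let-7i turn above 0 against the library total. miR-143 at 11840, 7804 and 13311 (0.12), miR-541 at 11800, 5556 and 9089 (0.06) and miR-21 at 7927, 6034 and 8492 (-0.15, also above 0 against the total) lay near the median miRNA. With miR-22 and the 4 lists set aside, the other 203 compared miRNAs took 42.3% of control, 21.8% of the Drosha-deficient and 39.6% of the Dicer-deficient library.

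Families and clusters differed in which way they leaned. The family of miR-99, miR-100 and miR-125 had 4 of 9 members higher and none lower, beside 19.5% each way over all compared miRNAs, with a median of 0.62. The 4 were miR-125b-5p, both arms of the miR-125a hairpin, and miR-99b*. The interval of miR-99b* (1.05 [-0.38 to 3.01], 4 Drosha-deficient reads) holds the median miRNA. Values of the family summed to 145072, 46875 and 146751, which is 4.71% of the Drosha-deficient and 14.7% of the Dicer-deficient library. Within it the miR-99b, let-7e and miR-125a cluster, processed from 1 transcript, ran from 0.62 for miR-99b to 2.12 for miR-125a-3p (6 Drosha-deficient reads). miR-99b was at 8938, 3243 and 7803, and let-7e at 2345, 698 and 2322 (1.09). miR-99a, from another locus, was at 2749, 2416 and 2367 (-0.68).

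The miR-15/16 list, which restrains cell cycle genes, had both compared members higher, beside 19.5% over all compared miRNAs. miR-15a was at 145, 39 and 203 (1.72) and miR-16 at 193, 26 and 222 (2.42). miR-322, which shares their seed, was at 320, 65 and 219 (1.10). miR-503, a neighbour of miR-322 on the X chromosome, was at 138, 39 and 192 (1.64). All 4 rest on 2 to 5 Drosha-deficient reads, and the interval of miR-322 reached -0.19. miR-15b, with the same seed, was at 65 in control and 92 in Dicer-deficient cells and was not listed in Drosha-deficient cells.

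In the miR-17~92 cluster and its paralogs 3 of 10 compared members were higher and none lower, which is near the 19.5% over all compared miRNAs. The median was 0.62, and 6 of the 10 rest on fewer than 10 Drosha-deficient reads. The better covered members lay nearer the median miRNA: miR-93 was at 4876, 1628 and 3548 (0.48), miR-19b at 2345, 1098 and 1633 (-0.07) and miR-17* at 1084, 917 and 956 (-0.59). The signs of miR-19b and miR-17* turn against the library total.

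let-7 and miR-98, which hold back growth and stem cell genes, spread from -0.60 for let-7i to 1.09 for let-7e although they share the seed GAGGUAG. Of 10 compared, 1 was higher and none lower, beside 19.5% each way over all compared miRNAs, and the median was 0.63. let-7a was at 2891, 1163 and 3419 (0.91 [0.59 to 1.24]) and let-7c at 5098, 4070 and 5541 (-0.20 [-0.38 to -0.02]). The intervals of let-7a, let-7c and let-7i do not overlap each other, so these differences within the family exceed counting error. Reads of such near-identical sequences may have been split between members by the authors' mapping.

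Some seed families had their members close together. miR-103 and miR-107 were at -0.62 and -0.63, miR-26a and miR-26b at 0.12 and 0.13, and miR-130a, miR-130b and miR-301a between -1.15 and -0.82. The 4 miR-181 members lay between -0.98 and -0.03, with miR-181a, the most abundant, at 7844, 6253 and 6303 (-0.64). The p53-regulated miR-34 members lay between -0.64 and -0.07. Ratios of miR-103, miR-107, miR-34a, miR-181a and others less than 0.65 below 0 are above 0 against the library totals.

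The imprinted Dlk1-Dio3 region, which encodes one of the largest mammalian miRNA groups, had 51 IDs listed, 36 of them in the Drosha-deficient and 50 in the Dicer-deficient library, whose depths differ. Of the 33 compared, 6 were higher and 5 lower, beside 19.5% each way over all miRNAs, and the median was 0.10. Its total share was 6.71% of control, 4.27% of the Drosha-deficient and 5.66% of the Dicer-deficient library. miR-409-3p was at 3324, 439 and 2637 (1.94) and miR-370 at 1058, 155 and 830 (1.77). On the other side miR-431 was at 1938, 1576 and 1152 (-1.10) and miR-379 at 375, 620 and 378 (-1.36). Members of this 1 region thus covered both sides, from miR-668 at -2.19 (5 reads) to miR-665 at 3.68 (3 reads).

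Among mesenchymal miRNAs 4 of 14 compared were higher and none lower, a share higher near the 19.5% over all compared miRNAs, with a median of 0.36. miR-214, encoded with miR-199a in the Dnm3os transcript, was at 2375, 452 and 2726 (1.94 [1.46 to 2.48]), and miR-199a-5p was at 3029, 853 and 2556 (0.94). The X-linked Clcn5 intron cluster ran from -0.50 for miR-362-5p to 2.03 for miR-532-5p (3 reads), with 2 of 7 higher. The other family lists had few members past the rule: miR-29 had 1 of 3 lower (median -0.20), miR-30 had 1 of 6 higher (-0.30), the Hox miRNAs 1 of 4 lower (-0.22), miR-221 and miR-222 1 of 2 lower (-0.86), miR-148b and miR-152 1 of 2 lower (-0.72), and miR-26 with miR-101 and the Gnas miRNAs none of 3 (0.12 and -0.36). Medians less than 0.65 below 0 turn above 0 against the library totals. The epithelial list had 1 of 3 compared members higher (miR-183) and the muscle or neural list none of 3. Of single hairpins, miR-378 was at 6189, 1822 and 5889 (1.05), miR-671-5p at 3036, 452 and 2522 (1.83) and miR-28 at 1360, 310 and 1311 (1.43).

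**Figure D3:**
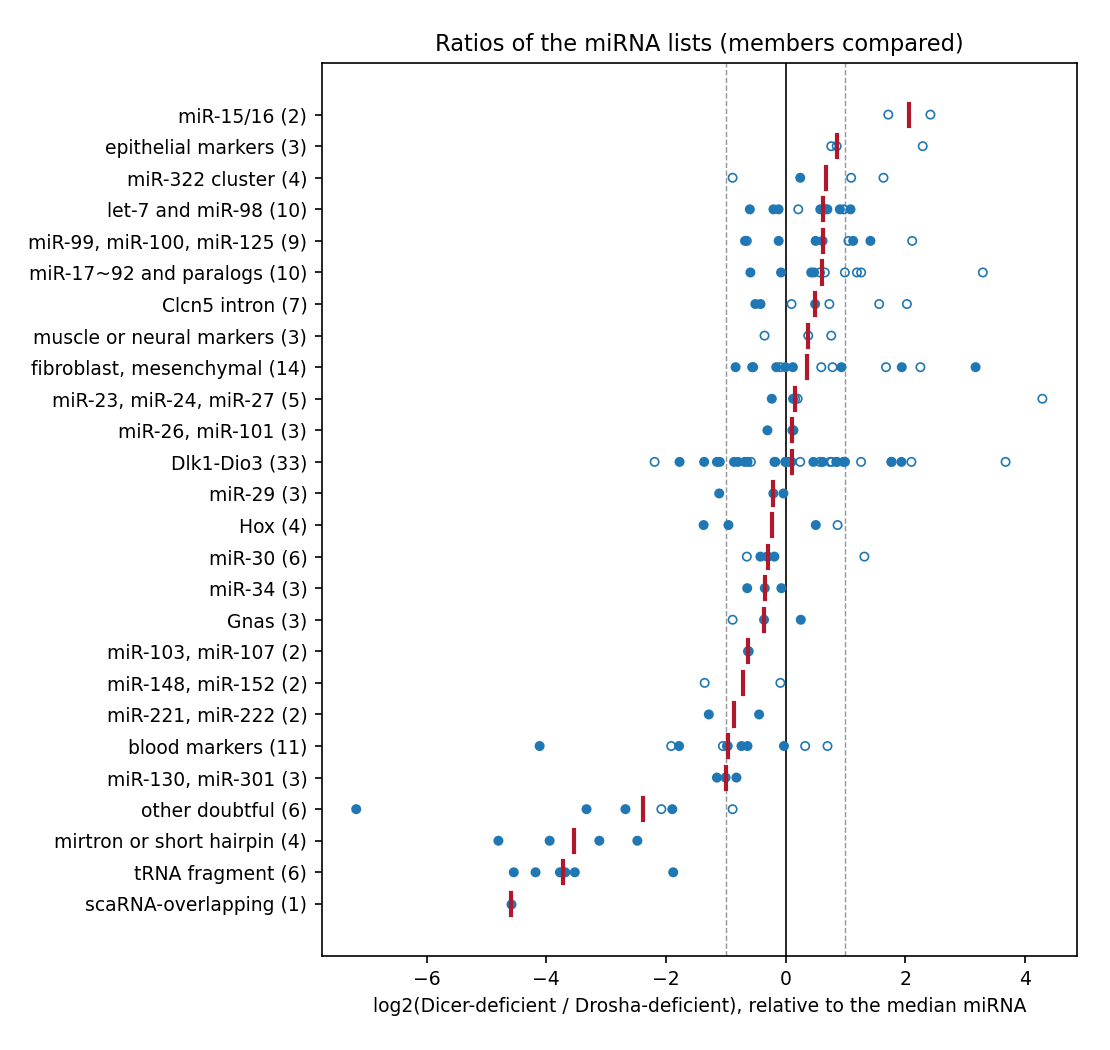
Ratio of each compared member of the preset miRNA lists (x axis, log2 of Dicer-deficient over Drosha-deficient relative to the median miRNA), 1 list per row with its number of compared members; open points have fewer than 10 Drosha-deficient reads, red bars are list medians and dashed lines mark 1 log2 unit. The 4 lowest rows, from doubtful entries to the scaRNA-overlapping entry, have medians from -2.38 to -4.60, and the remaining medians run from -1.0 to 2.07, where those less than 0.65 below 0 would lie above 0 against the library totals.

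Both strands of a hairpin are cut from 1 precursor, although a few miRNAs here, such as miR-125b-5p, miR-181a and the miR-199a arms, have 2 loci and pool 2 precursors. The difference between the ratios of the strands does not depend on how the libraries are scaled. Both arms were compared for 37 names. The arms differed by a median of 0.96 log2 units, 18 pairs by 1 or more and 9 by no more than 0.5. In 8 pairs the 2 counting intervals did not overlap. Of the 9 pairs with 10 or more Drosha-deficient reads on both arms, 5 had intervals apart and the median difference was 1.07. The star strand had the higher ratio in 14 of 21 pairs named guide and star, and the lower one in 7. Several of the 14 rest on few Drosha-deficient reads and have overlapping intervals, such as let-7d* (1 read), miR-30b* (2) and miR-93* (3). A star name does not always mark the lesser arm. In control miR-29a* held 93.4% of its pair and miR-17* 87.1%.

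miR-27a* and miR-21* led the separated pairs. miR-27a was at 160, 78 and 141 (0.20) while its star arm was at 4.29, and the star arm's share of the hairpin was 86.8, 25 and 85.2%. miR-21 lay at -0.15 and miR-21* at 3.18, and the star share was 34.5% in control, 4.69% in Drosha-deficient and 33.2% in Dicer-deficient cells. miR-151-3p was at 113, 116 and 126 (-0.53) beside miR-151-5p at 3.19, so the 3p share was 6.14, 50 and 7.04%. In each of these 3 hairpins control and Dicer-deficient cells had nearly the same arm use. In Drosha-deficient cells 1 arm was far lower than control, while its partner lay nearer control, although miR-27a itself was at 78 against 160. The Drosha-deficient shares of miR-27a and miR-151 rest on few reads, 2 for miR-27a* and 9 for miR-151-5p.

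The other 5 separated pairs differed less. miR-423-5p was at 5316, 3127 and 4808 (-0.03) and miR-423-3p at 3284, 866 and 2959 (1.12), with a 3p share of 38.2, 21.7 and 38.1%. miR-409-5p (-0.17) and miR-409-3p (1.94) differed in the same sense, as did miR-483 at 5949, 2339 and 6337 (0.79) and miR-483* at 2062, 220 and 1430 (2.05), which come from an Igf2 intron. miR-342-3p (-1.78) lay below miR-342-5p (0.33). For miR-125b the difference was smaller, at 1.13 for the 5p arm and 0.50 for the 3p arm. Other hairpins had arms close together, such as miR-127 (-0.63 and -0.79), miR-378 (1.05 and 1.08) and miR-140 (0.08 and 0.03 with its star). No pair had 1 arm past the rule on one side and its partner past it on the other.

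**Figure D4:**
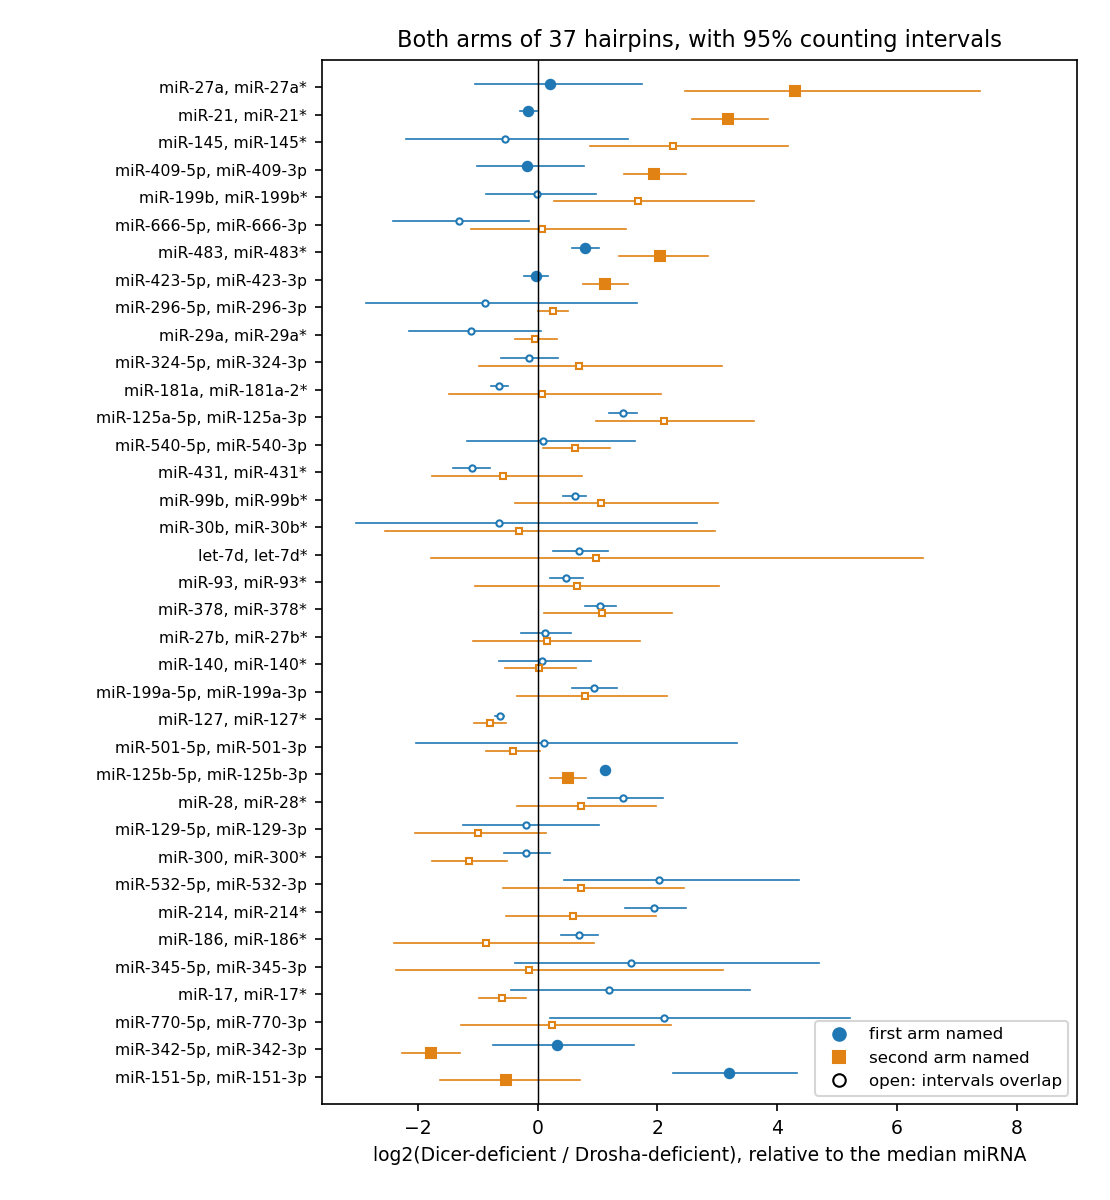
Ratios (x axis, log2 relative to the median miRNA) of both arms of 37 hairpins with 95% counting intervals, ordered by the difference between the arms; filled symbols mark the 8 hairpins whose 2 intervals do not overlap. miR-27a and miR-21 at the top and miR-151 at the bottom have the widest separations, up to 4.09 log2 units.

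The 61 miRNAs listed only in Dicer-deficient cells had values of 11 to 152 and made up 0.165% of that library. The 37 listed only in Drosha-deficient cells had 13 to 78 and made up 0.108%. A missing entry was not read as 0. Of the former, miR-675-5p, processed from the imprinted H19 RNA, was the largest at 233 in control and 152 in Dicer-deficient cells, followed by miR-329 (120 and 108), miR-15b, miR-219 (58 and 81) and miR-574-3p (55 and 67). The largest of the latter were miR-714 at 15 in control and 78 in Drosha-deficient cells, miR-1187 at 65, miR-677 at 52, miR-1939 at 18 and 52, and miR-490 at 39. These Drosha-deficient values stand for 3 to 6 reads.

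The same ratio was computed in the 3 T lineage cell types of the series, DN3 thymocytes, regulatory T cells and CD4 T cells, each relative to its own median miRNA and from 1 library a side. These cells were sorted from mice on the same background aged 6 to 7 weeks, with Lck-cre in DN3 thymocytes and CD4-cre in the other cell types. The CD4 deletion lists are shallow and hold no value below 526 (Drosha-deficient) or 645 (Dicer-deficient). miR-320 was below the median miRNA in all of them, at -2.94 in DN3, -2.38 in regulatory and -6.00 in CD4 T cells. miR-484 was at -0.64, -3.37 and -6.68. The other entries at the lower end were less alike: of the 10 lowest in fibroblasts 3 could be compared in DN3 cells (1 below the median miRNA), 3 in regulatory T cells (3 below) and 7 in CD4 cells (4 below, 2 above). Entries listed on 1 side only are outside these counts. In CD4 cells miR-877*, miR-1983 and miR-1839-5p were at 4342, 4605 and 2368 without Drosha and not listed without Dicer. The other strand, miR-877, was at 428 and 18 in regulatory T cells (-4.52). In DN3 cells miR-877 was listed only without Drosha, at 109. miR-146a was at 0.50, -0.02 and 1.11, away from its fibroblast ratio.

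Of the 10 highest, 7 were compared in DN3 cells (6 above the median miRNA), 8 in regulatory T cells (6 above) and 3 in CD4 cells (1 above). Few came near their fibroblast ratios. miR-149 did in DN3 cells, at 3.59, from a Drosha-deficient value of 13 where the lowest listed was 10. miR-7a was at 2.58 in CD4 cells, from 526, the lowest Drosha-deficient value listed. It was at -0.06 in DN3 and 0.72 in regulatory T cells. miR-21* was at 0.26 in DN3 and -0.16 in regulatory T cells, and miR-27a* at 0.50 and 0.39. miR-125b-5p was at 2.32 in DN3 cells. These differences between cell types were not tested, and the lists of DN3 and regulatory T cells are per sequence while those of CD4 cells and fibroblasts are per mature miRNA.

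**Figure D5:**
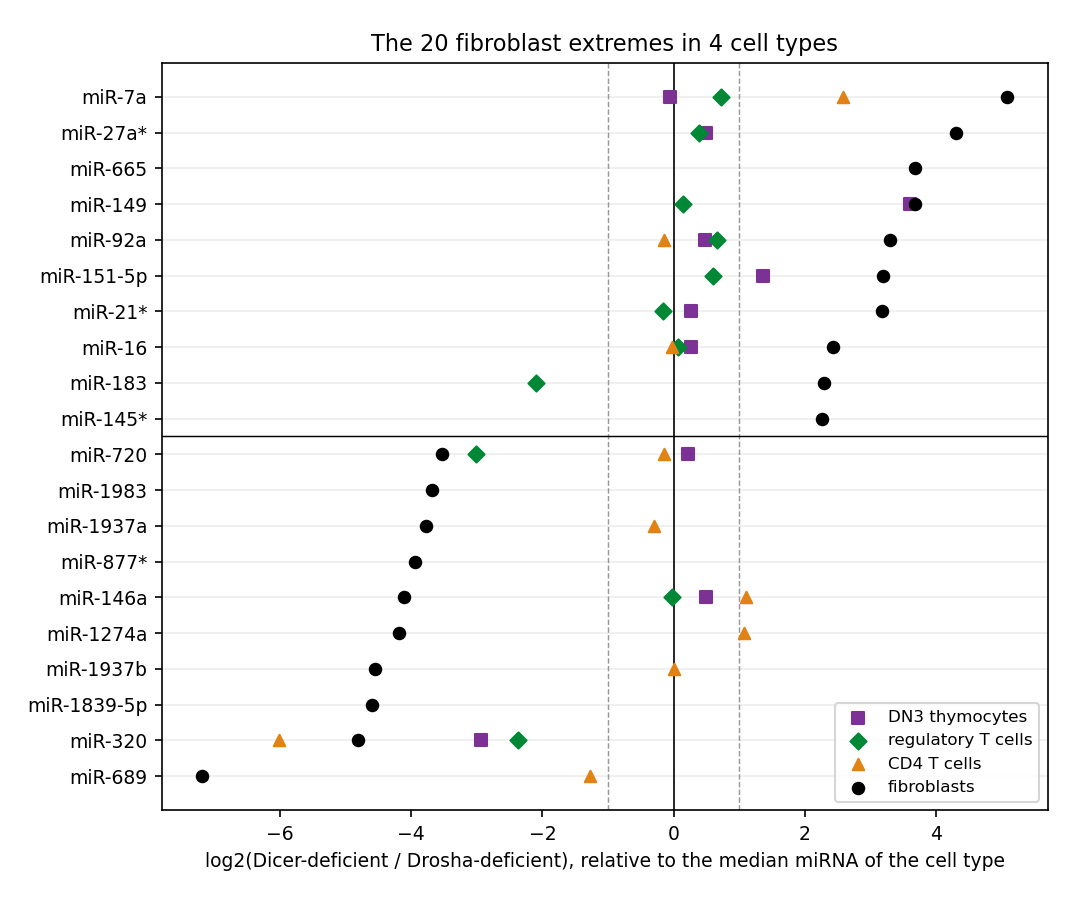
Ratio of Dicer-deficient over Drosha-deficient cells (x axis, log2 relative to the median miRNA of each cell type) for the 20 fibroblast extremes in DN3 thymocytes, regulatory T cells, CD4 T cells and fibroblasts, 1 library a side; a missing symbol means that the miRNA was not compared there. miR-320 lies below -2 in all 4 cell types, while miR-146a and most of the upper 10 lie nearer 0 in the T lineage cells than in fibroblasts.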

How the data were processed

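Small RNAs of mouse embryonic fibroblasts were compared between 1 Dicer-deficient and 1 Drosha-deficient library, with 1 control library beside them. Groups came from the sample titles. Per the labels, adaptors were clipped and reads mapped to miRNA loci; for the aligner, the miRBase release and the build, the sources used here give nothing. The deposited score is, per the file headers, a normalised mapping count per mature miRNA, a per-million value rounded to whole numbers by the authors. Because these are not raw counts, no count model was used. Reads were implied from the step between values up to 1500 (tolerance 0.6). Whole reads came out for 100% of those values in the control and Drosha-deficient and 81.4% in the Dicer-deficient library, so Dicer-deficient reads are estimates.

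Ratios used a pseudocount of 0.5 and were centred on the median of 221 miRNAs listed in both libraries with a sum of at least 50. Scripts were tested on simulated data. Intervals are 95% exact (Clopper-Pearson, SciPy 1.17.1, Python 3.11.15). Alternatives were library totals, other centring sets, pseudocounts of 5 and 20, other filters on low values, and missing values set to 3 reads. Members and lists were chosen with earlier results of these data known. Named miRNAs were the 10 highest and 10 lowest ratios, the 10 most abundant per library, every listed member of the 4 lists of mirtrons or short hairpins, tRNA fragments, scaRNA overlaps and doubtful entries, the 5 largest listed in 1 library only, and for other lists the most abundant members and those past 1 log2 unit. Mature sequences from RefSeq matched 206 of 340 IDs, by name, by the sequence deposited for the T cell libraries, or as the other arm of a matched hairpin. Only 139 of the 221 compared miRNAs (62.9%) matched, under the 80% needed, so a check of sequence features is void. Hairpin positions are from GENCODE M21.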

Additional observations from a re-analysis of the deposited data

Results flagged for a closer look

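For 6 of the compared miRNAs the Dicer to Drosha ratio in fibroblasts and that in a T lineage cell type lay on opposite sides of the median miRNA, each by 1 log2 unit or more. The difference was not tested in any of them, and each ratio comes from 1 library a side. Values are in the order control, Drosha-deficient, Dicer-deficient. Of these, 4 were lower in Dicer-deficient fibroblasts and higher in Dicer-deficient CD4 T cells. miR-146a was at -4.11 in fibroblasts and 1.11 in CD4 T cells (14220, 5658 and 23115 there). miR-1274a, a tRNA-fragment entry, was at -4.18 and 1.07 (90, 658 and 2623). Its Drosha-deficient CD4 value is near the lowest one listed there, 526. miR-805, another tRNA-fragment entry, was at -1.88 and 1.19 (6800, 2500 and 10806). The T lineage cells differed among themselves for miR-805, at -2.93 in regulatory T cells (51, 349 and 45) and 0.49 in DN3 thymocytes. miR-155 was at -1.05, from 6 Drosha-deficient reads, and 1.60 (4260, 1711 and 9836). The other 2 were higher in Dicer-deficient fibroblasts. miR-183 was at 2.29 there, from 2 Drosha-deficient reads, and -2.10 in regulatory T cells (37, 385 and 89). miR-503 was at 1.64, from 3 reads, and -1.46 in DN3 thymocytes (292, 645 and 314).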

How the results depend on the processing

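Single ratios were rerun for the 39 named and compared miRNAs, and none of the called ones changed sign. A change of centring could not reverse a call, because a call needs 1 log2 unit and the largest shift was 0.65. Against the library totals the counts moved from 43 higher and 43 lower to 89 and 26, since the median shift of 0.65 was not removed. With a mean value of at least 130, which leaves 145 miRNAs, they were 28 and 25, and with missing values set to 3 reads, which adds miRNAs to 270, 57 were higher and 70 lower. The median shift was 0.49 over the 95 miRNAs with at least 20 reads in both libraries and 0.55 with no filter. The counts stayed within 1.5 times of 43 under the remaining alternatives, with 53 and 35 for the deeper centring, 34 and 38 for a pseudocount of 20, and 49 and 50 with no filter. Of 39 named and compared miRNAs, 22 moved beyond their own interval against the library totals and 11 under the deeper centring. Depth limits the Drosha-deficient side: 96 of the 221 ratios rest on fewer than 10 reads there. No paired analysis was possible because each genotype had 1 library and the labels carry no replicate numbers. For the same reason no library could be left out.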

Other observations

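The Drosha-deficient list began at 2 reads for nearly all entries. The value of 1 read, 13, was given for 9 IDs only: let-7a*, let-7b*, let-7c-1*, let-7c-2*, let-7d*, let-7f*, let-7g*, let-7i* and miR-1. Every other entry was at 26 or more. The control and Dicer-deficient lists began at 11, or 3 reads, for 25 and 24 entries. The entry floors of the fibroblast lists thus differ in reads, and within the Drosha-deficient list also by name, which bears on miRNAs listed on 1 side only.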
